A study of Caenorhabditis elegans with 2 samples.

Results

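The regions described here are 536 of the 30000 regions in the pooled CEH-6 binding list of Caenorhabditis elegans late embryos. They were chosen by taking the 3000 regions of highest signal, keeping those on the X chromosome, and leaving out those whose summit lay within 100 bp of an annotated tRNA, snoRNA, snRNA, rRNA or miRNA gene. Of 656 strong X regions, 120 were left out in this way. The same steps gave 2086 autosomal regions, the main comparison. The regions ranked below 3000 and passed through the same distance rule, 4463 on X and 22290 on the autosomes, served as the weaker regions.

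The strain OP748 supplied both samples, late embryos of mixed sex labelled with an age of 3.3 hours and obtained by egg bleaching. The strain carries the transgene wgIs748, which joins ceh-6 to a TY1 EGFP 3xFLAG tag and brings unc-119(+), in an unc-119(ed3) mutant of background VC2010. Chromatin from whole animals was sonicated and pulled down with an antibody against GFP in 2 biological replicates of this 1 group, with no second genotype, stage or mock pulldown, so binding in single cell types cannot be told apart. The deposited signal of each region is the authors' own, relative to 1 control. Its scale and the read depth are unknown, since the lists hold no read counts.

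CEH-6 is a POU homeodomain protein known from the excretory canal cell, rectal epithelium and some neurons, and POU proteins bind an octamer of which ATGCAAAT is the classic form. The X chromosome of C. elegans is also where the dosage compensation complex is loaded: in hermaphrodites this condensin-like complex enters X at recruitment sites, whose motif contains GCGCAGGG, and spreads from there to lower transcription of both copies of X. Chromatin pulldowns of many worm factors also share a class of highly occupied promoters.

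The windows below carry the property with the largest odds ratio between X and autosomal regions among the 8 shares tested, the word GCGCAGGG within 100 bp of the summit. They show every such site on X except those near W02H3.3, which follow. Each is written 5' to 3' on the strand that holds the word, from the RefSeq copy of assembly WBcel235, with the word in capitals. Its name is the coding gene with the nearest transcript start, which need not be the gene whose exon or intron holds the summit.
C41A3.2, chrX:5429574-5429613, plus strand: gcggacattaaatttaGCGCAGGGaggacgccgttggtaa
WBGene00020828, chrX:1837876-1837915, plus strand: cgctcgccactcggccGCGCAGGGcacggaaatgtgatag
F20B6.9, chrX:4209250-4209289, minus strand: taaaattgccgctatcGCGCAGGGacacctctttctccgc
cest-16, chrX:6296532-6296571, plus strand: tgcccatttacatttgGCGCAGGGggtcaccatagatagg
cest-16, chrX:6296560-6296599, plus strand: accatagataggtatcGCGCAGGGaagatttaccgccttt
nspc-17, chrX:14525884-14525923, minus strand: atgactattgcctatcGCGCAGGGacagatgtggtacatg
gtr-1, chrX:806658-806697, plus strand: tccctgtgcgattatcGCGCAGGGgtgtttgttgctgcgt
gtr-1, chrX:806734-806773, plus strand: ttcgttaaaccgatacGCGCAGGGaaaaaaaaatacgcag
F22H10.2, chrX:16682156-16682195, minus strand: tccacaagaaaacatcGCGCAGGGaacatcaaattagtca
Y41G9A.17, chrX:2997107-2997146, minus strand: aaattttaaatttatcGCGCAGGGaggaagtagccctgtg
ins-39, chrX:1345040-1345079, plus strand: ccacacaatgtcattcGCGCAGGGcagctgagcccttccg
ZK813.5, chrX:3456868-3456907, minus strand: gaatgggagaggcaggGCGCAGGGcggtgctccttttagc
sdn-1, chrX:10596750-10596789, minus strand: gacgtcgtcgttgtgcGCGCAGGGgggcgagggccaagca

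In 9 of the 15 sites the word was preceded by TC, in 9 it was followed by A, and in 7 it had both. One of the windows with 2 sites, near W02H3.3, is shown whole, 100 bp to each side of its summit, since both sites read on the minus strand and therefore appear in capitals as the reverse complement.
W02H3.3, chrX:11094117-11094317, plus strand: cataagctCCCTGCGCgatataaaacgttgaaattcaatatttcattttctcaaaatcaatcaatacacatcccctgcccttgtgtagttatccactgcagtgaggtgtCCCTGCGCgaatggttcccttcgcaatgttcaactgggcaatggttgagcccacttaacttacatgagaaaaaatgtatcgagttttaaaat

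The strongest member and the strongest member with a CA repeat follow, with other capitals. In the T13C5.6 window they mark a match to GTTCNANNC, a pattern of the B box inside tRNA genes, and in the spat-3 window the run of CACACACA read on the other strand.
T13C5.6, chrX:6207777-6207977, plus strand: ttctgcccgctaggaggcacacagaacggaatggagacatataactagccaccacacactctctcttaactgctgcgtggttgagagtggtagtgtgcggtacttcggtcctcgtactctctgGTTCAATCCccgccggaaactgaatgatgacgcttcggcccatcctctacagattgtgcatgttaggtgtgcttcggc
spat-3, chrX:4606387-4606587, plus strand: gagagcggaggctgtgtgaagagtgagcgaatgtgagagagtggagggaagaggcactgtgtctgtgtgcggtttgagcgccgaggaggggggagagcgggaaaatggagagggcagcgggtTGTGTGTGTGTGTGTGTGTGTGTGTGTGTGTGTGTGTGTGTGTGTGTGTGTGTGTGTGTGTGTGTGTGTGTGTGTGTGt

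GCGCAGGG was present in 12 of the 536 X regions (2.24%, exact 95% interval 1.16 to 3.88%) and in 1 of the 2086 autosomal regions (0.0479%, 0.00121 to 0.267%). The odds ratio was 47.7 (7.02 to 2042; two-sided Fisher's exact test, Benjamini-Hochberg adjusted over 8 shares, p = 2.04e-07). The tests were chosen with earlier results of these data known, and the adjustment over 8 shares does not cover that choice. Among the weaker regions the word was in 0.246% on X and 0.0987% on the autosomes. The odds ratio of the strong regions was 19.1 times that of the weaker ones (95% interval 2.19 to 167, adjusted p = 0.0470 in a logistic model and 0.0175 by Zelen's exact test). The single strong autosomal region lay near T27A1.1 on chromosome II, and the other autosomes had none.

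The word is also more frequent on X as a whole, with 81 sites or 4.57 per Mb against 2.82 per Mb on the autosomes. Of the 81 X sites, 15 (18.5%) lay within 100 bp of the summit of a strong X region. Of the 233 autosomal sites, 1 (0.429%) lay that close to a strong autosomal summit. Counting every pooled region, 32.1% of the X sites and 12.0% of the autosomal sites had a summit within 100 bp.

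The 12 regions with the word had median ranks of 654 in replicate 1 and 314 in replicate 2, against 2158 and 1581 for all members. Their median signal was 157, against 82.8 for the other members, and 6 of the 20 strongest members held it. Signal chose the members, so this is a description. The strongest of them lay in a coding exon, 15197 bp upstream of the nearest start, that of C41A3.2, a coiled-coil protein gene. It had signal 240 in the pooled list and ranks 162 and 182 in replicates 1 and 2. The region near WBGene00020828, for which the annotation gives no symbol, had ranks 170 and 235, and that near F20B6.9 ranks 359 and 175. W02H3.3 was at 284 and 205, cest-16, a carboxylesterase gene, at 272 and 222, and nspc-17 at 313 and 281. None of these ranked below 359 in either replicate. The other 6 ranked lower in replicate 1, at 949 or beyond.

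The gtr-1 region had ranks 1324 and 347, that of F22H10.2 had 949 and 434, and that of Y41G9A.17 had 1077 and 786. The ins-39 region, beside an insulin-like peptide gene, ranked 4320 and 491. That of ZK813.5 ranked 2586 and 1427. The weakest, in a non-coding exon near the syndecan gene sdn-1, ranked 2321 and 4418. In all, 10 of the 12 were in the top 3000 of both replicates, against 41.6% of all 536 members. Among the 67 members of highest signal, which held 8 of the 12, the share was 98.5%. The pooled signal came from both replicates, so this count is not separate from the rule. Whether any of the 12 is a recruitment site of the dosage compensation complex was not tested.

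**Figure D1:**
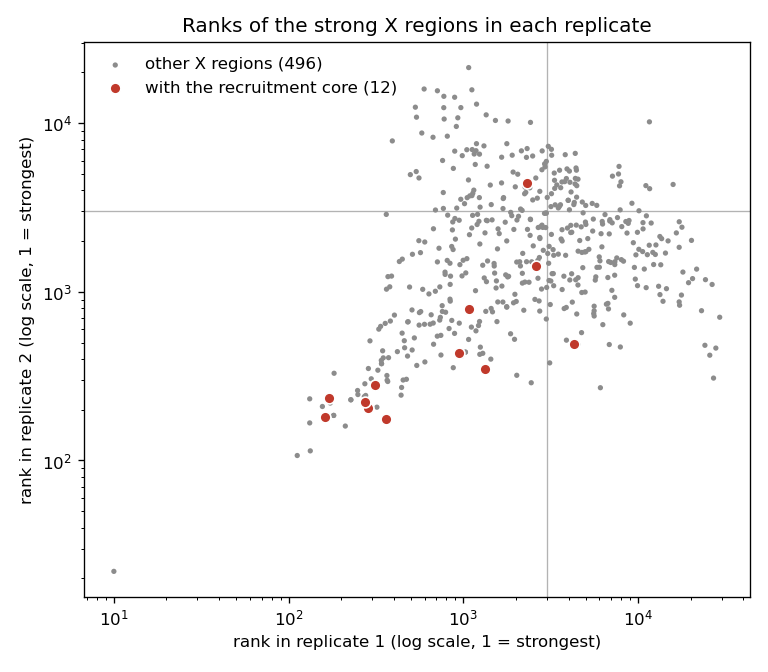
Rank of each strong X region in replicate 1 (x axis) and replicate 2 (y axis), both on a log scale with 1 the strongest. Lines mark rank 3000, red points are the 12 regions with the word GCGCAGGG (labelled recruitment core), and grey points the others. Of the members, 508 are plotted and 28 have no region at their summit in 1 of the replicates. The red points lie mostly at the lower left, where both ranks are high; ins-39 lies beyond rank 3000 in replicate 1 and sdn-1 in replicate 2.

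The regions with the word were spread along X, with summits from 806708 to 16682109. Only 2 were in promoters, nspc-17 and ins-39, and 10 lay over 1000 bp from any annotated transcript start of a coding gene (median distance 3014 bp). Of the 12, 10 were among the peaks that passed the authors' irreproducible discovery rate (IDR) step, against 113 of all 536 members (21.1%). In the pooled list 2.47% of all regions were IDR peaks. The IDR peaks are the regions of highest pooled signal, so none of these shares is separate from the rule.

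A search over all 32896 words of 8 bases, each joined with its reverse complement and chosen after the data were seen, put GCGCAGGG first. Its adjusted p over all words was 0.00143 by Fisher's exact test. The search repeats the comparison above on the same windows, so this is not separate support. At an adjusted p below 0.05, 4 words were more frequent in the X regions (0.0122% of all words) and 1 was less frequent (Fisher's exact test, 1697 words at unadjusted p below 0.05). The next were CCCCCCCC, in 7.84% of X and 2.54% of autosomal regions (exact adjusted p = 0.00143), CCCTCTTC (4.66% against 1.20%, adjusted p = 0.0203) and CACCCCCC (2.99% against 0.479%, adjusted p = 0.0341). AATTTCCG was in 0.373% of X and 3.84% of autosomal regions (exact adjusted p = 0.0203). These words were also unequal among the weaker regions: CCCCCCCC stood at 2.98% on X and 1.23% on the autosomes, and AATTTCCG at 1.61% and 4.43%.

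The strongest members with a run of 8 C or G lay beside pdi-2, a protein disulfide isomerase gene, aat-3, an amino acid transporter gene, and gmeb-2. Their ranks in replicates 1 and 2 were 248 and 260, 479 and 416, and 570 and 764. CGAAGGGA missed the threshold (exact adjusted p = 0.0896). It occurred in 14 members (2.61%), 0.431% of autosomal regions, 0.336% of weaker X regions and 0.274% of weaker autosomal ones. Of the 12 with GCGCAGGG, 6 held it, among them C41A3.2, F20B6.9, W02H3.3 and cest-16. Whether the words occur together was not tested.

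Masked repeats and repeated long words marked fewer strong X regions than autosomal ones. Soft-masked bases, which RefSeq sets in lower case for repeats, filled at least 50% of the window in 9 X regions (1.68%, 0.771 to 3.16%) and 238 autosomal ones (11.4%, 10.1 to 12.9%). Fisher's exact test gave odds 0.133 times as high on X (0.0595 to 0.259, adjusted p = 1.82e-14), and the autosomes ranged from 10.1 to 12.2%. Masked repeats were also rarer on X among the weaker regions, 6.32% against 17.4%. The odds ratio among strong regions was 0.415 times that among weaker ones (0.209 to 0.823, adjusted p = 0.0470 in a logistic model and 0.0321 by Zelen's exact test).

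The 9 masked members included sto-4, a stomatin gene, at ranks 181 and 185 in the replicates, and C24H10.4, a bZIP gene, at 182 and 329. Both also consisted of repeated words, as did the cyp-13B2 and wrt-4 regions. Windows of which at least 50% was made of 31-base words found elsewhere in the genome were 0.746% of X and 2.49% of autosomal regions (odds ratio 0.294, 0.0769 to 0.805, Fisher's exact test, adjusted p = 0.0220). That count rests on 4 X regions, and the call was lost on the list of either replicate alone (exact adjusted p = 0.230 without replicate 1 and 0.0955 without replicate 2).

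CA repeats were more frequent on X. CACACACA was in 68 members (12.7%, 9.99 to 15.8%) and in 8.58% (7.41 to 9.87%) of the autosomal regions, with odds 1.55 times as high (1.13 to 2.10, adjusted p = 0.0127 by Fisher's exact test). X was above each of the autosomes, which ranged from 5.52 to 10.1%. CACACACA was also denser on X as a whole, with 167.5 sites per Mb against 130.8 on the autosomes together (109 on V to 153 on I). How far the difference between the regions follows from this density was not tested. Among the weaker regions the shares were 3.02% and 2.58%. The ratio of the odds ratios, 1.31 (0.922 to 1.87), missed the threshold (adjusted p = 0.284 by Zelen's exact test). With overlapping regions counted once the difference was 3.20 percentage points (exact adjusted p = 0.0512), and with regions near small RNA genes kept it was 2.74 (adjusted p = 0.0646), so the call was lost under these settings. It held under the others run, and with only as many regions as there were IDR peaks the shares were 27.4% and 11.05% (exact adjusted p = 0.000255), a difference of 16.4 points. Windows of 200 bp gave a difference of 6.75 (exact adjusted p = 0.000287).

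The strongest CA repeat members were in the promoter of spat-3, whose product is a RING finger protein of the Polycomb kind. A first region had signal 267 and ranks 132 and 167, and a weaker one, overlapping it, signal 186 and ranks 132 and 232, so replicate 1 holds 1 region for both. The sto-4 promoter, at 239, stood between them. Next came ain-1, whose product works with the microRNA Argonaute ALG-1. Its stronger region, at 181, had rank 249 in replicate 1 and no replicate 2 region at its summit, and an overlapping member, at 142, had ranks 249 and 246. Of the 68 CA repeat members, 42 (61.8%) were in the top 3000 of both replicates, against 41.6% of all members. CA repeats were most frequent in the first 2 of 8 equal sets in order of signal. In those sets 98.5% and 82.1% of all members were in both, so the share is a description.

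**Figure D2:**
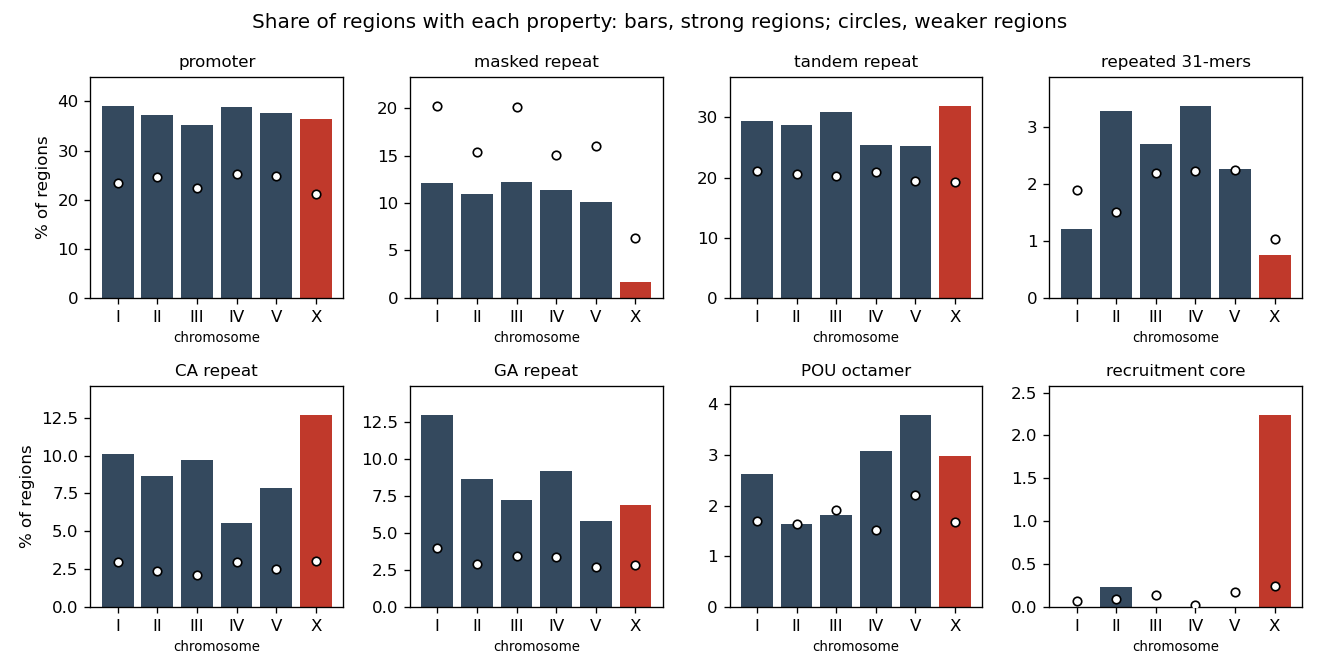
Share of regions on each chromosome (y axis, percent of regions) that hold each of 8 properties; bars are strong regions away from small RNA genes, with X in red, and circles are weaker regions of the same chromosome. X has the lowest bar for masked repeats (1.68%) and for repeated 31-base words, and the highest for CA repeats (12.7%) and for GCGCAGGG (recruitment core, 2.24%).

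The other shares did not pass the test. The octamer ATGCAAAT was in 16 X regions (2.99%, 1.72 to 4.80%) and 2.54% of autosomal ones (odds ratio 1.18, 0.624 to 2.12, Fisher's exact test, adjusted p = 0.617). In the weaker regions it stood at 1.68% and 1.80%. Its strongest X members lay near Y15E3A.5, with signal 200.4 and ranks 320 and 207, near F54E4.4, with 135 and ranks 373 and 407, and near F16B12.6, with 129.1 and ranks 403 and 728. GAGAGAGA was in 6.90% of X and 8.92% of autosomal regions (odds ratio 0.758, 0.510 to 1.10, exact adjusted p = 0.188), and chromosome I reached 12.96%. Its strongest X members were in the promoters of pdi-2, F09C8.2 and kin-29, a kinase gene. Tandem repeats of at least 12 bp with a unit of at most 6 bp were in 31.9% and 28.2% (odds ratio 1.19, 0.966 to 1.47, exact adjusted p = 0.157).

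Mean GC content of the windows was higher on X, 48.7% ± 6.42 (SD, n = 536) against 46.7% ± 7.03 (SD, n = 2086). The difference of 1.91 percentage points had an adjusted permutation p of 2e-05 over 2 tests, its raw p being the smallest that 100000 permutations can give (1e-05, two-sided). Among weaker regions the difference was 0.243. The regions with GCGCAGGG had a mean of 44.2%. The 8 shares and these measures compare 1 chromosome with 5, and regions of a chromosome are not independent replicates, so the intervals and p-values describe the regions, not animals.

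Promoters, taken as 1 to 1000 bp upstream of a coding transcript start, held 195 of the X regions (36.4%, 32.3 to 40.6%) and 37.6% of the autosomal ones (odds ratio 0.9497, 0.775 to 1.16, adjusted p = 0.617 by Fisher's exact test). The weaker regions stood at 21.2% and 24.1%. With only as many regions as there were IDR peaks, promoters held 52.2% on X and 62.2% on the autosomes (exact adjusted p = 0.153). The difference was -4.06 points with promoters of 2000 bp (exact adjusted p = 0.132) and -3.82 with regions near small RNA genes kept (exact adjusted p = 0.116), against -1.20 here. The kind of promoter was unequal, though not tested. Divergent promoters, upstream of starts on both strands, held 3.17% of X regions (1.86 to 5.03%) and 9.06% of autosomal ones (7.86 to 10.4%). One-sided promoters held 33.2% (29.2 to 37.4%) and 28.5% (26.6 to 30.5%). Among the weaker regions divergent promoters held 0.515% on X and 2.46% on the autosomes.

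Each summit was counted in a single class, with promoters taken first and non-coding exons only after every class of coding genes. Coding exons held 11.2% of X regions and 17.3% of autosomal ones, introns 22.01% and 23.1%, and intergenic sequence 21.3% and 17.7%. Outside promoters and coding genes, exons of genes that are not protein-coding, pseudogenes and piRNA genes included, held 7.46% and 2.49% (the non-coding exon class). Such exons lying in promoters or introns were counted there, so this is not the share of all summits in such exons. A non-coding RNA gene lay within 100 bp of 22.9% and 11.3%. That count left out pseudogenes, piRNA genes and the small RNA classes of the distance rule. The 5' UTR class had 8 members, with aat-3 and sto-4 strongest, and the 3' UTR class 1, nearest to F57G12.1. Median distance to the nearest coding start was 1128 bp on X (quartiles 347 and 2535) and 936.5 bp on the autosomes (279 and 2270), with autosomes from 831 to 1121 bp. The permutation test gave an adjusted p of 0.0383, and without replicate 1 the difference of 112.5 bp did not pass (permutation p = 0.247). It was 373.5 bp with only as many regions as there were IDR peaks (permutation p = 0.00545), 285 bp with 6000 regions (the smallest permutation p, 1e-05) and 283.5 bp with regions near small RNA genes kept (permutation p = 0.00029). Weaker regions differed by 264 bp the same way.

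**Figure D3:**
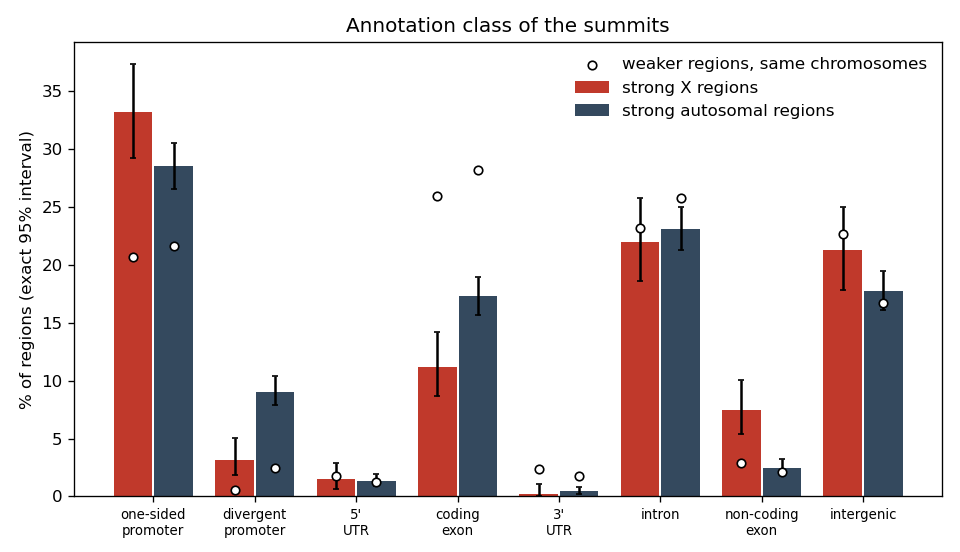
Share of summits in each annotation class (y axis, percent, bars with exact 95% intervals) for the 536 strong X regions and 2086 strong autosomal regions; circles give the weaker regions of the same chromosomes. Each summit is in a single class, and non-coding exons count only outside promoters and coding genes. Divergent promoters and coding exons take lower shares on X (3.17% and 11.2%) than on the autosomes (9.06% and 17.3%), and non-coding exons a higher one (7.46% and 2.49%).

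The makeup changed with signal. Members were divided into 8 sets of 67 in order of signal. From the strongest set to the weakest, coding exons went from 1.49% to 19.4% and promoters from 53.7% to 28.4%. CA repeats were in 20.9% and 29.9% of the first and second sets and in at most 11.9% of each of the others. GCGCAGGG was in 8 regions of the first set, 2 of the second and 2 of all others together. On the autosomes coding exons went from 3.07% to 24.6%, promoters from 64.4% to 26.5%, and CA repeats from 12.3% to 5.00%. Signal chose the members, so these are descriptions.

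**Figure D4:**
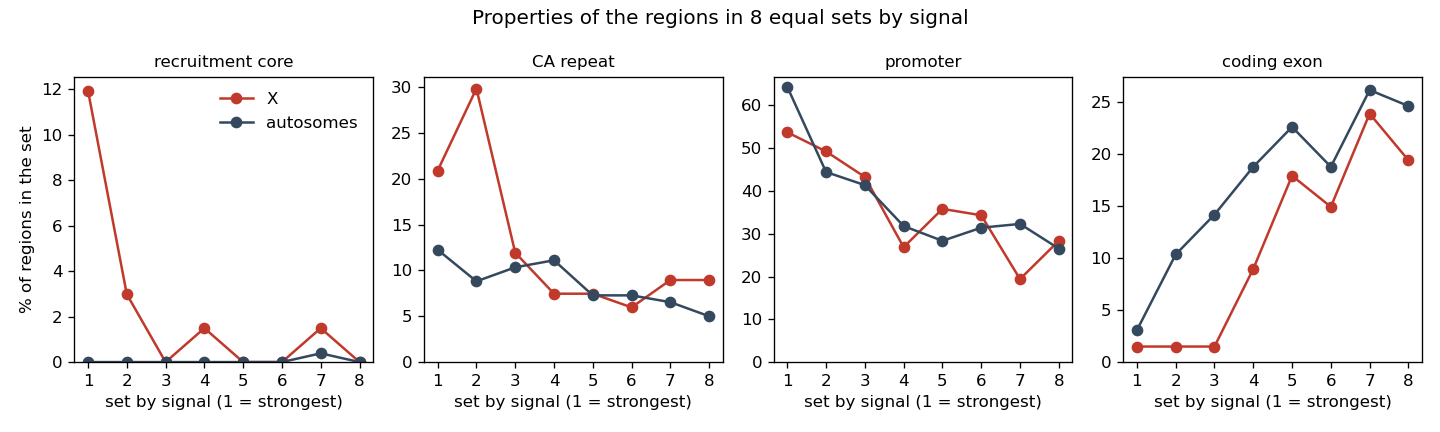
Share of regions (y axis, percent) with each property in 8 equal sets in order of pooled signal (x axis, 1 the strongest), for X members in red and autosomal regions in blue. GCGCAGGG (recruitment core) is concentrated in the first X set at 11.9%, CA repeats in the first and second, and coding exons take a rising share toward the weaker sets on both.

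Members were found along the whole of X. There were 30.3 per Mb, within the range of the autosomes (18.6 on IV to 32.8 on I). Per 1000 coding genes X had 196, against 79.3 on V, the lowest autosome, and 172 on I, the highest. The 17 whole bins of 1 Mb held from 17 to 45 members, with a median of 30. The fewest were between 8 and 9 Mb and the most between 2 and 3 Mb. Across these bins the count had a Pearson correlation of 0.53 with that of weaker regions and -0.35 with that of coding genes. These are descriptions over bins of 1 chromosome, which share libraries and depth.

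The median gap between neighbours was 18974 bp and the longest 295166 bp, from 6391694 to 6686860. A neighbour within 5 kb was found for 205 members (38.2%), and for 39.8% of autosomal regions. The largest groups had 5 members, one at act-4, an actin gene, and M03F4.6, the other at F13D11.3 and hbl-1. Overlapping neighbours numbered 17 on X.

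The replicates placed the members unequally. The median rank was 2158 in replicate 1 and 1581 in replicate 2, taking the best-ranked region that covers each summit. Of the 536, 309 (57.6%) were in the top 3000 of replicate 1, 394 (73.5%) in that of replicate 2, 223 (41.6%, 37.4 to 45.9%) in both and 56 (10.4%) in neither. The autosomal share in both was 34.1% (32.1 to 36.2%). The pooled list was made from the reads of both replicates, so these shares are descriptions and were not tested. IDR peaks, the regions of highest pooled signal, made up 21.1% of the X members and 16.5% of the autosomal regions. By signal, 72.4% of the stronger 268 members and 10.8% of the weaker 268 were in both. Replicate 1 had no region at the summit of 26 members and replicate 2 at that of 2.

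At the limit, the last members inside were near F39F10.2, lin-2, a membrane scaffold gene of the vulval signalling complex, and sma-9, a zinc finger gene of the BMP pathway. Their signals were 67.74, 67.71 and 67.66. The first X regions outside, at 67.60, 67.55 and 67.52, were near alr-1, a homeobox gene, nhr-91 and unc-2, a calcium channel gene. The ranks of F39F10.2 in the replicates were 21603 and 1364, those of unc-2 were 1195 and 9819. The other 4 had ranks of 3916 and 5358 (lin-2), 4766 and 1713 (sma-9), 5112 and 5237 (alr-1) and 3023 and 4003 (nhr-91), so these 6 ranged from close ranks to far apart ones on both sides of the limit.

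The strongest member was in the promoter of T13C5.6, a phosphatidic acid phosphatase family gene. It had signal 724, ranks 10 and 22 and a summit 190 bp upstream of the start. The next member, at 306, was in the promoter of ftt-2, an adaptor protein gene, with ranks 133 and 114. T13C5.6 lies away from every annotated tRNA gene, but its summit is within 100 bp of the non-coding RNA gene C14F11.14 and its window holds the B box pattern printed above. That pattern, looked at after the values were seen, was in 48 members (8.96%), 5.99% of autosomal regions, 8.25% of weaker X regions and 7.58% of weaker autosomal ones. It was in 4 of the 20 strongest members, T13C5.6, ZK816.3 and idpp-9, each within 100 bp of a non-coding RNA gene, and ain-1, which was not. Of all 48, 14 (29.2%) lay within 100 bp of such a gene, against 22.9% of all members. Whether such regions hold unannotated small RNA genes was not tested.

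After C41A3.2 came sto-4, then an intron 1659 bp from the start of ldb-1, a cofactor of LIM domain proteins, at signal 237 and ranks 156 and 209. Of the 15 strongest members, T13C5.6, ftt-2, spat-3, sto-4 and ZK816.3 were in promoters. The summit nearest to C41A3.2 was in a coding exon, those nearest to ldb-1 and cest-16 in introns and that nearest to idpp-9 in a non-coding exon. The rest were intergenic, nearest to WBGene00020828, F20B6.9, Y15E3A.5, K02D3.1, W02H3.3 and F55G7.5.

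Of the members, 487 lay within 5000 bp of a coding start and were assigned to 389 genes, 14.2% of the 2731 coding genes of X. Of these genes, 75 had at least 2 members and 19 at least 3. With 4 each stood act-4, kin-20, a casein kinase gene, pkn-1, a protein kinase gene, and F09A5.3. Genes with more surrounding sequence can collect more regions, so weaker regions per gene are given beside each list; the mean over all X genes was 1.49. No list was tested, and their genes were chosen with earlier results known.

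The genes of sex determination and dosage compensation had 3 of 6 X-linked members with a strong region, fox-1, ceh-39 and sex-1, with 2.5 weaker regions per gene. These 3 are known X signal elements, whose dose reports the number of X chromosomes in the embryo. The rest of the list had no strong region assigned. The list's share was 50%, against 14.2% of all X coding genes. fox-1, an RNA-binding protein gene, had its strongest region at signal 112.1 with ranks 585 and 1035, and had 2 more. ceh-39, a ONECUT homeobox gene, had 82.3 with ranks 17261 and 833, and sex-1, a nuclear receptor gene, 77.0 with ranks 3165 and 1159. The ceh-39 region thus ranked high in replicate 2 and not in replicate 1.

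Heterochronic genes time larval cell fates. All 3 X-linked genes of the list chosen for them, which need not hold every such gene, had a region, with 8 weaker regions per gene. hbl-1, a zinc finger gene, had 138 with ranks 602 and 384, lin-14 had 95.4 with 4199 and 869, and daf-12, a steroid receptor gene, 79.4 with 1545 and 1161. The list of excretory canal genes and CEH-6 partners had 4 of 9 (2.33 weaker regions per gene). It was led by sox-2, a SOX gene whose product works with CEH-6 in rectal cells, at 121 with ranks 558 and 635. The proton pump genes vha-15 and vha-12 and the homeobox gene ceh-37 followed.

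Homeobox genes had 8 of 27 and nuclear hormone receptor genes 8 of 27 (29.6% each, with 2 and 2.33 weaker regions per gene). At dve-1, the strongest of the homeobox genes, the stronger region, at 103, had no replicate 1 region at its summit and rank 1082 in replicate 2, and an overlapping member, at 77.6, had ranks 1661 and 1082. The strongest receptor gene was nhr-1, at 96.7 with ranks 1173 and 1016. Axon guidance and matrix genes had 5 of 11 (4.55 weaker regions per gene). Their strongest regions were those of sdn-1, at 133 with ranks 875 and 355, of sax-3, a Robo receptor gene, at 90.5 with 6278 and 639, and of unc-6, the netrin gene, at 84.5 with 876 and 5395. Muscle genes had 3 of 8 (37.5%, 2.5 weaker regions per gene), and Wnt and planar polarity genes 1 of 3 (33.3%, 2.33 weaker regions per gene), vang-1, at 168 with ranks 440 and 244.

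Cuticle collagen genes had 4 of 30 (13.3%, 1.17 weaker regions per gene), near the share of all X genes. Neuropeptide and insulin genes had 3 of 34 (8.82%, 1.47 weaker regions per gene), chemoreceptor genes 2 of 34 (5.88%, 0.324 per gene) and ribosomal protein genes 0 of 2 (1 per gene). With starts within 1000 bp only, homeobox genes numbered 4 of 27 and nuclear hormone receptors 3 of 27, against 8.42% of all X genes. Axon guidance and matrix genes fell to 0 of 11, heterochronic genes to 1 of 3 and muscle genes to 1 of 8. Excretory canal genes and CEH-6 partners fell to 2 of 9, without sox-2. Collagens had 2 of 30, neuropeptide and insulin genes 1 of 34 and chemoreceptors 0 of 34. The dosage compensation list kept 3 of 6 and the Wnt and planar polarity list 1 of 3.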

How the data were processed

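CEH-6 chromatin pulldown was measured in 2 biological replicates of 1 group. Per the labels, the lists are on ce11; aligner and caller: not given in the sources used here. Deposited by the authors were 4 lists with signal values: 1 for each replicate, 1 for the pooled reads, and the IDR peaks. The relaxed lists hold 30000 regions each. The summit position, a further column of the deposited lists, gave each region's place. Signal was used to rank within a list only. Depth is unknown, and no column belonged to an unmapped sample.

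Summits were placed on Ensembl release 115 and RefSeq sequence of WBcel235, which ce11 names. A region's rank in a replicate is the best among the replicate regions containing its summit, so a weaker member can carry the rank of a stronger region. The second sto-4 member, at pooled rank 405, had ranks 181 and 185, as the first did. The T03G6.3 member, at pooled rank 1414, had ranks 112 and 107. Windows reached 100 bp to each side. Shares were compared with Fisher's exact tests and exact intervals, distance and GC content with 100000 permutations, and the contrast of strong with weaker regions by the ratio of odds ratios in a logistic model, to which Zelen's exact test of equal odds ratios was added after the values were seen, in Python 3.11.15 with SciPy 1.17.1. The members, the 12 gene lists and the tests were chosen with earlier results of these data known, and the word search, the B box pattern and the set counts were chosen after the values were seen. Genes were named for the 15 strongest members, the 3 strongest of each class, word and list, and the regions at the limit; others named were chosen after their values were seen. On simulated windows of independent bases, the word search called 0 of 32896 words with nothing changed and ranked a planted word first. The planted word was in a larger share of windows than GCGCAGGG. Both simulated sets had the same base makeup and no added repeats or overlaps. The simulation therefore does not cover calls such as CCCCCCCC in the real windows, which differ in GC content. No sequence from chromosome I is shown.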

Additional observations from a re-analysis of the deposited data

Results flagged for a closer look

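2 differences between X and autosomes were themselves different in strong and weaker regions, by a test of the ratio of odds ratios. For GCGCAGGG the odds ratio was 19.1 times as large in strong regions as in weaker ones (2.19 to 167, adjusted p = 0.0470 in the logistic model, 0.0175 by Zelen's exact test). It rests on 12 strong X regions and 1 strong autosomal region. For soft-masked repeats the ratio was 0.415 (0.209 to 0.823, adjusted p = 0.0470 in the logistic model, 0.0321 by Zelen's exact test), resting on 9 masked X regions. The p-values were adjusted over 8 shares, and the tests were chosen with earlier results of these data known, which the adjustment does not cover. Whether read mapping in repeats differs between X and autosomes was not tested. With 2 samples, no test for a sample apart from the others was possible.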

How the results depend on the processing

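Of 90 alternatives of the tested results, 77 kept direction and side of the threshold. Differences are X minus autosomes in percentage points, unless given in bp. The GCGCAGGG, soft-masked and GC content differences kept both under all alternatives run. With only as many regions as there were IDR peaks there were 113 members and the repeated 31-mer difference was -2.87, with loss of the call. With the top 6000 there were 1048, the tandem repeat difference was 3.55 and passed, and that of the octamer turned to -0.0665. Keeping regions near small RNA genes gave 2.74 for CACACACA. Counting overlapping regions once, chosen after seeing the data, gave 3.20 for CACACACA and -1.59 for repeated 31-mers, and both calls were lost. Tandem repeats gave 6.22 and passed with windows of 200 bp, and -0.0454 with runs of 20 bp. Assignment within 1000 bp gave 230 genes in place of 389, and 314 members had a neighbour within 10 kb in place of 205. Each replicate alone gave 500 to 557 members, promoter differences of -0.813 to 0.0767, repeated 31-mers -1.43 to -1.001, GAGAGAGA -0.265 to 0.564 and distances of 112.5 to 189 bp. The causes were not tested. No paired analysis was possible because the study has 1 group. Depth is not known, so counting error of a signal could not be given.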
